A study of Saccharomyces cerevisiae with 45 samples.

Results

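The transcripts of 8 stress transcription factors of budding yeast (Saccharomyces cerevisiae) were followed through heat shock: HSF1, SKN7, MSN2, MSN4, GIS1, YAP1, CIN5 and HOT1. The genes were chosen by name, with earlier results of these data known. Each was read by 1 probe set, so that they made up 8 of the 5449 genes with a name on the array. All cultures were of strain BY4147, labelled as mating type a (MATa) with the alleles his3D1, leu2D0, met15D0 and ura3D0, and were grown in rich YPD medium. Flasks were moved to a water bath at 37 °C for 1, 3, 5, 7, 10, 15 or 40 min (batch A863, 3 arrays per time) or for 80 min (batch A705, 3 arrays), to 42 °C for 3, 5, 10 or 40 min (batch A927, 2 arrays per time), or to 46 °C for 10 or 30 min (batch P230, 2 arrays per time). Controls at 25 °C came from batch A863 (3 arrays) and batch A927 (2 arrays). The 4 arrays labelled 42 °C 1 and 80 min (batch A961) were left out, which left 41 of 45 arrays in 16 of 18 groups.

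Hsf1 is an essential activator that binds heat shock elements and drives chaperone genes, and Skn7 carries the same type of DNA-binding domain and acts in oxidative and cell wall stress. Msn2 and Msn4 are related zinc finger activators that enter the nucleus when protein kinase A activity falls and bind the stress response element, while the zinc finger protein Gis1 acts on genes induced as glucose runs out. Yap1 and Cin5 are basic leucine zipper proteins, known for the oxidative and the osmotic stress response, and Hot1 works with the kinase Hog1 on glycerol genes under osmotic stress. Several of these proteins are switched by phosphorylation or by movement into the nucleus, which an array of transcripts does not read.

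A level here is the log2 intensity of a gene's probe set, and a change is the mean log2 level of a heated group minus that of its own 25 °C control, with its standard error. A gene rose or fell where limma's adjusted p was under 0.05. Levels of different genes come from different probes and are not set against each other. RNA came from whole cultures, so fewer cells with a transcript and less of it per cell cannot be told apart. The labels do not tell whether arrays of a group came from separate cultures, so every p-value reflects spread among arrays that may be technical only.

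Within groups the correlation between arrays was 0.9915 to 0.9994. Array medians were 10.20 to 10.26 in A863 and A705, 10.12 to 10.20 in A927 and A961, and 9.85 to 9.86 in P230. The first 2 ranges overlapped slightly, and only P230 stood apart. The median SD between arrays of a group was 0.051 in A863, 0.057 in A705, 0.043 in A927 and 0.124 in P230. URA3, LEU2 and MET17 (the gene of met15D0) stayed at 5.93 or below on all 41 arrays. The level of probe sets without a target, taken as their 95th percentile, was at most 5.64 in any set of arrays. Probe sets of these genes were counted among them, so that level is no separate check of the deletions. HIS3 read 10.27 to 12.38 although the genotype names a deletion there, and which part of the gene its probes cover was not analysed. Of the genes of a cells, MFA1, MFA2, STE2 and BAR1 read 9.99 or above, and STE6 read 7.97 to 11.86. The alpha pheromone gene MF(ALPHA)1 had a median level of 4.47 and MF(ALPHA)2 read 4.76 to 6.99. The alpha genes STE3 and SAG1 read 5.18 to 8.45 and 8.37 to 9.53. At 40 min of 42 °C all 5 a genes were lower (42.9% of all genes were), with a median change of -2.68. Of 4 alpha genes 3 were lower there, and STE3 rose by 2.60 ± 0.15. Arrays sharing the labels left out did not resemble each other: the correlation within a label was 0.612 at 1 min and 0.6195 at 80 min, against 0.998 and 0.9984 for the pairs across the labels.

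Heat moved the 8 transcripts in different directions. CIN5, GIS1, MSN4 and MSN2 rose within 3 to 5 min at 37 and 42 °C, SKN7 and HOT1 fell, YAP1 first fell and later rose, and HSF1 rose at 10 to 40 min of 37 °C and at 40 min of 42 °C. Over the 12 comparisons with 25 °C, GIS1 was higher in 10 and lower in 0, MSN4 was higher in 9 and lower in 0, and CIN5 was higher in 10 and lower in 2. SKN7 was lower in 11 and HOT1 in 9, and neither was higher in any. MSN2 was higher in 8 and lower in 1, YAP1 was higher in 2 and lower in 6, and HSF1 was higher in 4 and lower in 0.

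**Figure D1:**
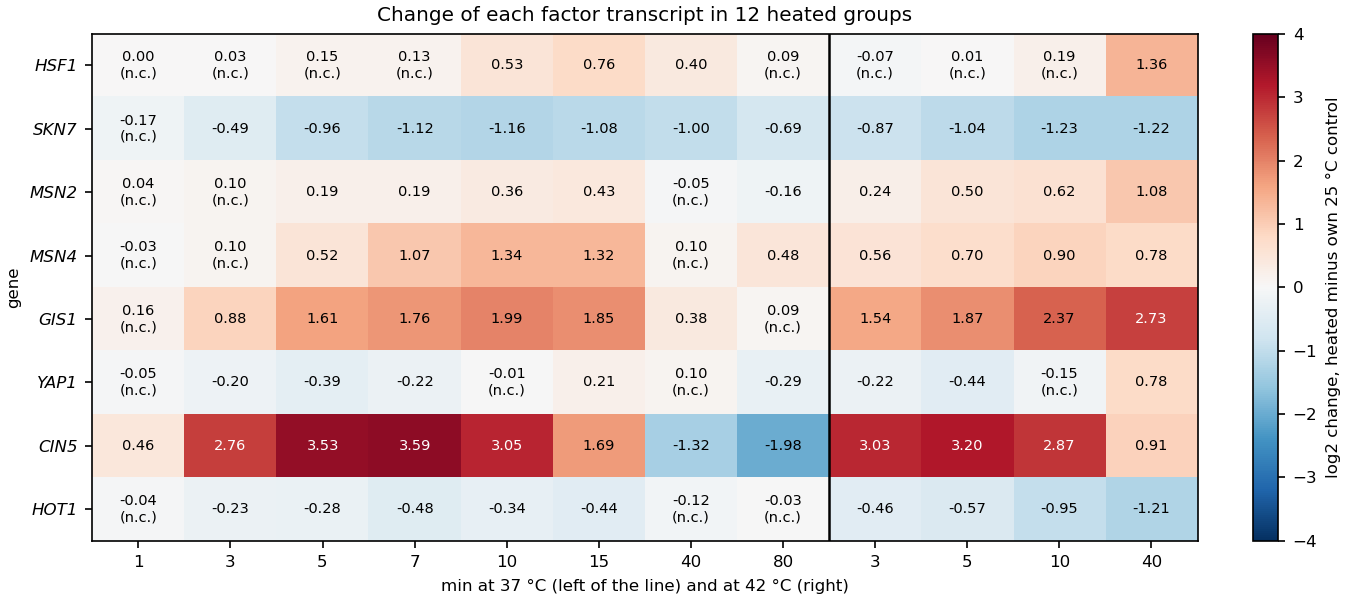
Log2 change of each transcript (rows) against its own 25 °C control at 8 times of 37 °C and 4 times of 42 °C (columns); colour gives the change and n.c. marks changes not called at an adjusted p under 0.05. CIN5 has the largest rise (3.59 at 7 min of 37 °C) and also the largest fall (-1.98 at 80 min, in another batch than its control). The SKN7 and HOT1 rows hold no rise.

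The factors called at 37 °C are given beside the share of all genes called. After 1 min 1 of the 8 was higher (6.75% of all genes were) and 0 were lower (7.38% of genes), with 1 of 8 lower at an unadjusted p under 0.05. After 3 min 2 were higher (20.4% of genes) and 3 lower (23.4%). After 5 min the counts were 4 higher (30.7%) and 3 lower (34.2%), and after 7 min again 4 (35.5%) and 3 (37.1%). After 10 min 5 were higher (42.0%) and 2 lower (39.4%), and after 15 min 6 were higher (45.4%) and 2 lower (39.7%). After 40 min 2 were higher (37.5%) and 2 lower (40.0%), and after 80 min 1 was higher (34.8%) and 4 lower (38.7%).

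At 42 °C the same counts were 4 higher (23.6% of genes) and 3 lower (30.1%) after 3 min, and 4 higher (30.7%) and 3 lower (35.7%) after 5 min. After 10 min 4 were higher (34.8%) and 2 lower (43.3%), and after 40 min 6 were higher (44.1%) and 2 lower (42.9%). From 5 min on most genes on the array were called at both temperatures, and nothing is read from these counts beyond the direction of each factor. The shares of all genes given above for each time are also the ones to set beside the counts of listed genes below. Those lists were made with earlier results of these data known. The median absolute change of the 8 was 0.92 at 15 min of 37 °C, where that of all genes was 0.58, and 1.14 at 40 min of 42 °C, where that of all genes was 0.89. It was below that of all genes at 1 min (0.04 against 0.08), 40 min (0.25 against 0.36) and 80 min (0.22 against 0.31) of 37 °C. At every other time of 37 and 42 °C it was above. In limma's F-test over the times of a temperature, all 8 varied at 37 °C (97.1% of genes did) and all 8 at 42 °C (95.0% of genes did). The ratio of the 3′ to the 5′ probe set of ACT1, a measure of RNA integrity, moved with time: it was 1.33 ± 0.07 (log2, SD, n = 2) at 40 min of 42 °C and 0.75 ± 0.09 in the A927 control (SD, n = 2), and 0.92 ± 0.08 at 80 min of 37 °C and 0.52 ± 0.01 in the A863 control (SD, n = 3 each). Its part in the results at those times was not tested.

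**Figure D2:**
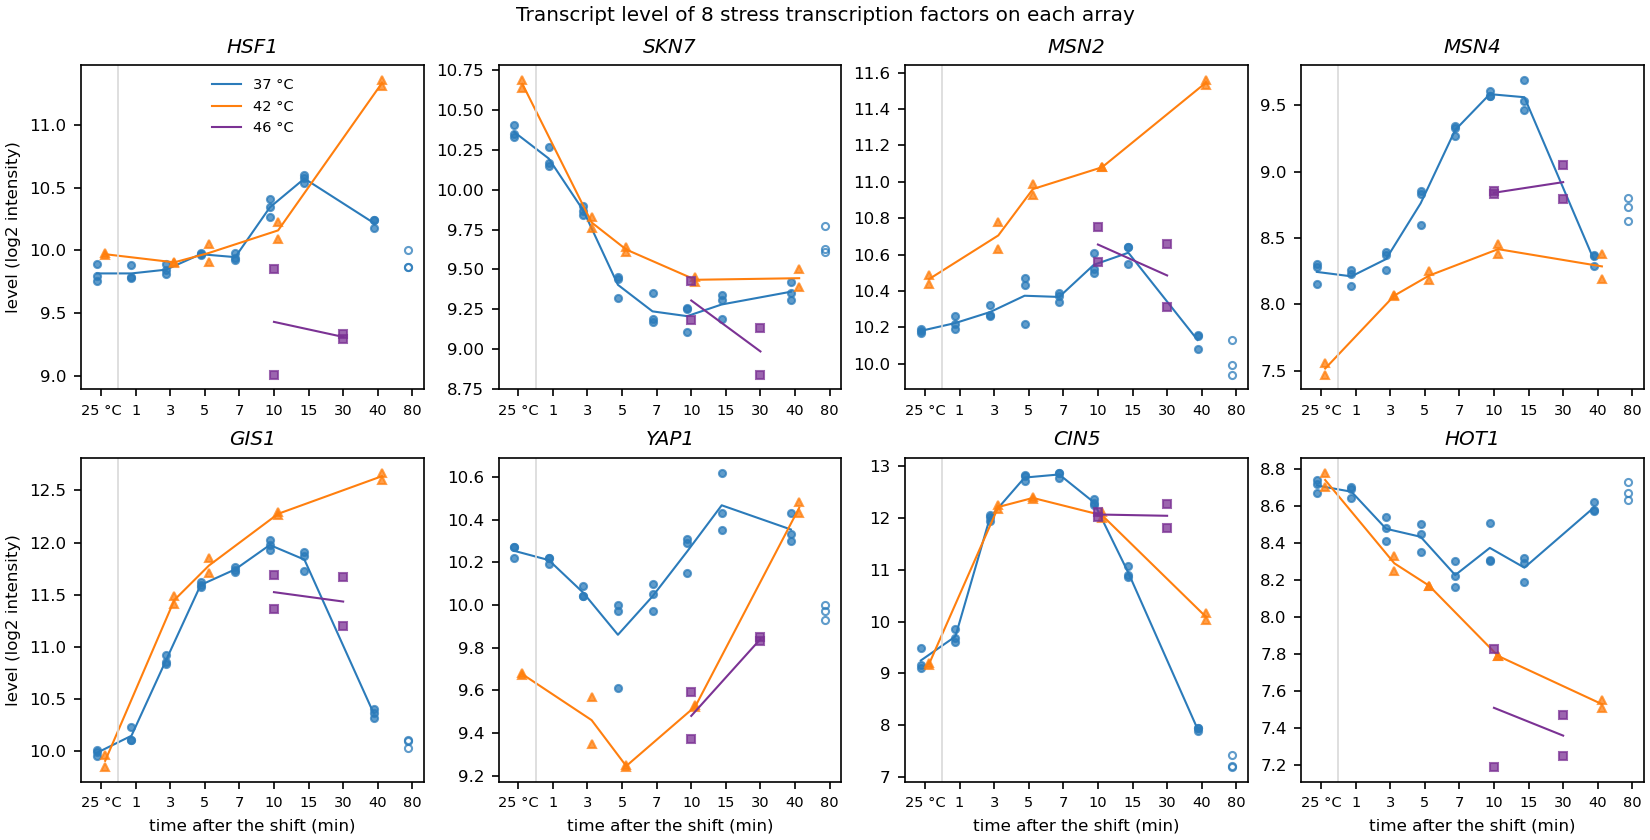
Log2 level of each transcript on every array against time after the shift (25 °C controls at the left of each panel; times are evenly spaced, not to scale). Circles are 37 °C arrays (open at 80 min, another batch), triangles 42 °C, squares 46 °C, and lines join group means. GIS1, HSF1 and MSN2 are highest at 40 min of 42 °C, while at 37 °C they peak at 10 or 15 min.

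HSF1 (YGL073W), the gene of the heat shock factor itself, had its largest changes at 15 min of 37 °C and 40 min of 42 °C. At 25 °C its level was 9.89, 9.76 and 9.80 in batch A863. It lay between 9.78 and 9.98 on all arrays from 1 to 7 min at 37 °C, then reached 10.41, 10.27 and 10.35 at 10 min, 10.54, 10.58 and 10.60 at 15 min and 10.24, 10.18 and 10.24 at 40 min. All arrays from 5 to 40 min lay above all control arrays, those of 5 and 7 min (9.92 to 9.98) by little, and those of 80 min (9.87, 9.87 and 10.00) overlapped them. The log2 change was 0.53 ± 0.10 at 10 min (limma, adjusted p = 1.83e-05), 0.76 ± 0.10 at 15 min (3.53e-08) and 0.40 ± 0.10 at 40 min (0.000572), and at 1 to 7 min no change was called, with 95% intervals between -0.21 and 0.36. With the arrays of its own batch alone, the changes of 0.15 at 5 min and 0.13 at 7 min were called (limma, adjusted p = 0.0037 and 0.0111).

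At 42 °C HSF1 read 9.96 and 9.98 in the controls, 9.90 and 9.91 at 3 min, 10.05 and 9.91 at 5 min, 10.23 and 10.09 at 10 min and 11.36 and 11.31 at 40 min. Only the 40 min arrays stood far above the controls. The log2 change was 1.36 ± 0.12 at 40 min (limma, adjusted p = 7.78e-12). At 10 min it was 0.19 ± 0.12 (limma, adjusted p = 0.162), and 0.0204 when the fit held the arrays of that batch alone. Between 10 and 40 min the level rose by 1.18 ± 0.12 at 42 °C (limma, adjusted p = 3.91e-10), while at 37 °C the same step was -0.12 ± 0.10 (0.267). With the arrays of its own batches alone this 37 °C step was called (limma, adjusted p = 0.0131). From 15 to 40 min of 37 °C HSF1 changed by -0.35 ± 0.10 (limma, adjusted p = 0.0021).

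SKN7 (YHR206W), the other member with an HSF-type DNA-binding domain, fell at both temperatures and stayed low. Its level at 37 °C was 10.41, 10.35 and 10.33 in the controls, 10.15, 10.27 and 10.17 at 1 min, 9.87, 9.90 and 9.84 at 3 min, 9.32, 9.44 and 9.45 at 5 min and 9.26, 9.11 and 9.25 at 10 min. Every heated array lay below every control array already at 1 min. At 40 min it read 9.31, 9.35 and 9.42, and at 80 min 9.63, 9.61 and 9.77. The log2 change was -0.17 ± 0.07 at 1 min (limma, adjusted p = 0.0976), -0.49 ± 0.07 at 3 min (4.48e-07) and -1.16 ± 0.07 at 10 min (3e-16), and it was still -0.69 ± 0.07 at 80 min (1.81e-10).

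At 42 °C SKN7 read 10.69 and 10.64 in the controls, 9.76 and 9.83 at 3 min, 9.61 and 9.64 at 5 min, 9.42 and 9.45 at 10 min and 9.50 and 9.39 at 40 min. Most of the drop had happened by 3 min, and the 10 and 40 min arrays overlapped. The log2 change was -0.87 ± 0.08 at 3 min (limma, adjusted p = 1.64e-10) and -1.22 ± 0.08 at 40 min (7.81e-15), and the step between 10 and 40 min was 0.01 (95% interval -0.16 to 0.18).

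The other genes with an HSF-type domain differed among themselves. Of the 5 genes, HSF1 and SKN7 included, 2 were higher and 3 lower at 40 min of 42 °C (median -1.22, all genes 0.01), where most genes were called. HMS2, a gene with an HSF-type domain, changed by -3.80 ± 0.10 at 15 min of 37 °C and by -3.50 ± 0.12 at 40 min of 42 °C. SFL1, a repressor of flocculation genes, changed by -0.89 ± 0.08 and -1.54 ± 0.10 at the same times, and all 4 changes were called. MGA1, another HSF-type gene, changed by 0.37 at 15 min of 37 °C, which was not called, and rose by 3.71 ± 0.22 at 40 min of 42 °C (limma, adjusted p = 2.6e-16), from a 25 °C level near that of probe sets without a target.

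Genes that Hsf1 is known to activate were called earlier than the HSF1 transcript. Of 18 listed core targets, mostly chaperones and their helpers, 16 were higher at 3 min of 37 °C with a median log2 change of 1.06 (all genes 0.00), and 18 were higher at 15 min with a median of 2.06 (all genes 0.06). At 80 min 11 were higher and 6 lower. At 42 °C 18 were higher at 3 min (median 1.87, all genes -0.04) and 18 at 40 min (median 2.87, all genes 0.01). HSP42, a small heat shock protein gene, rose by 4.51 ± 0.09 at 15 min of 37 °C and by 7.43 ± 0.10 at 40 min of 42 °C, and HSP78, a mitochondrial disaggregase gene, by 4.63 ± 0.07 and 6.58 ± 0.09. CUR1, which sorts misfolded proteins, rose by 5.40 ± 0.08 at 40 min of 42 °C.

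MSN2 (YMR037C) rose modestly at 37 °C against its own control and more at 42 °C. At 37 °C its level was 10.18, 10.19 and 10.17 in the controls, 10.22, 10.43 and 10.47 at 5 min, 10.61, 10.52 and 10.50 at 10 min, 10.64, 10.64 and 10.55 at 15 min, 10.15, 10.08 and 10.16 at 40 min and 9.99, 9.94 and 10.13 at 80 min. The arrays from 5 to 15 min lay above all controls and those of 40 and 80 min below them. Its change from 25 °C was 0.43 ± 0.07 at 15 min (limma, adjusted p = 7.98e-07), -0.05 ± 0.07 at 40 min (0.491) and -0.16 ± 0.07 at 80 min (0.0375). The call at 80 min was lost without any of 5 of the 6 arrays concerned (adjusted p = 0.0606 to 0.162), and that at 5 min without the second or the third 5 min array (0.0592 and 0.0946). Against the A927 control, a comparison across batches, the changes at 5, 7, 10 and 15 min were -0.09, -0.10, 0.08 and 0.15. None of these 4 was called (limma, adjusted p = 0.0671 to 0.314).

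At 42 °C MSN2 climbed at every time measured. It read 10.49 and 10.44 in the controls, 10.63 and 10.78 at 3 min, 10.99 and 10.93 at 5 min, 11.08 and 11.08 at 10 min and 11.53 and 11.56 at 40 min, and no neighbouring groups overlapped. In log2 units it changed by 0.24 ± 0.08 at 3 min (limma, adjusted p = 0.0141, lost without the second 3 min array at 0.18 or the second control array at 0.091), 0.62 ± 0.08 at 10 min (5.95e-08) and 1.08 ± 0.08 at 40 min (1.69e-13).

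MSN4 (YKL062W), the relative of MSN2, rose further than MSN2 at 37 °C in log2 change and was back near the controls at 40 min. Its level there was 8.28, 8.30 and 8.15 in the controls, 8.37, 8.26 and 8.39 at 3 min, 8.60, 8.83 and 8.85 at 5 min, 9.33, 9.34 and 9.27 at 7 min, 9.57, 9.61 and 9.57 at 10 min, 9.53, 9.69 and 9.46 at 15 min and 8.36, 8.29 and 8.37 at 40 min. From 5 to 15 min all arrays stood above the controls, and at 40 min they overlapped them. The change amounted to 0.52 ± 0.07 at 5 min (limma, adjusted p = 8.44e-08), 1.34 ± 0.07 at 10 min (9.26e-18) and 0.10 ± 0.07 at 40 min (0.181). At 80 min, in another batch, the level was 8.73, 8.80 and 8.63 and the change 0.48 ± 0.07 (limma, adjusted p = 3.32e-07).

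At 42 °C MSN4 read 7.56 and 7.47 in the controls, 8.07 and 8.06 at 3 min, 8.25 and 8.18 at 5 min, 8.38 and 8.45 at 10 min and 8.19 and 8.38 at 40 min. All heated arrays lay above the controls, and the 5, 10 and 40 min arrays lay close together. Relative to 25 °C it changed by 0.56 ± 0.08 at 3 min (limma, adjusted p = 1.38e-06), 0.90 ± 0.08 at 10 min (3.53e-11) and 0.78 ± 0.08 at 40 min (5.51e-10). The controls of the 2 batches differed by -0.73 (A927 minus A863), and against the A863 control the 3, 5 and 40 min changes were -0.17, -0.03 and 0.05.

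GIS1 (YDR096W), a zinc finger protein with a histone demethylase-type domain, rose fast and far. At 37 °C its level was 10.01, 9.99 and 9.96 in the controls, 10.23, 10.11 and 10.11 at 1 min, 10.92, 10.84 and 10.86 at 3 min, 11.57, 11.59 and 11.62 at 5 min, 12.02, 11.93 and 11.98 at 10 min, 10.41, 10.37 and 10.32 at 40 min and 10.10, 10.03 and 10.11 at 80 min. No heated array overlapped the controls. Its change from 25 °C was 0.16 ± 0.08 at 1 min (limma, adjusted p = 0.158), 0.88 ± 0.08 at 3 min (4.97e-11), 1.99 ± 0.08 at 10 min (5.06e-21), 0.38 ± 0.08 at 40 min (4.94e-05) and 0.09 ± 0.08 at 80 min (0.287).

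At 42 °C GIS1 went on rising. It read 9.85 and 9.97 in the controls, 11.49 and 11.41 at 3 min, 11.85 and 11.71 at 5 min, 12.29 and 12.26 at 10 min and 12.67 and 12.60 at 40 min, and no neighbouring groups overlapped. In log2 units it changed by 1.54 ± 0.09 at 3 min (limma, adjusted p = 5.58e-15) and 2.73 ± 0.09 at 40 min (1.24e-22). Within its arrays GIS1 moved up to percentile 89.1 to 89.8 of all genes at 40 min, against 41.1 to 43.6 in the controls.

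Nearly every listed target of Msn2 and Msn4 rose, in a list made with earlier results of these data known. Of 20 listed targets 19 were higher and 1 lower at each time from 3 min on, at both temperatures. Their median log2 change was 1.60 at 3 min and 4.26 at 15 min of 37 °C (all genes 0.00 and 0.06), and 3.31 at 3 min and 5.28 at 40 min of 42 °C (all genes -0.04 and 0.01). The lower gene, named after its values were seen, was SDS23, which changed by -1.23 ± 0.07 at 40 min of 42 °C. DDR2, a stress gene used to follow Msn2 and Msn4, rose by 6.97 ± 0.13 at 10 min of 37 °C. SOL4, a pentose phosphate enzyme gene, rose by 6.81 ± 0.14 at that time and by 8.19 ± 0.18 at 40 min of 42 °C.

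Of 4 listed Gis1 targets, 3 were higher at 10 min of 37 °C (median 1.96, all genes 0.02) and 3 at 40 min of 42 °C (median 3.23, all genes 0.01). SSA3, a stress-induced HSP70 gene, rose by 2.84 ± 0.11 and 5.48 ± 0.14 at those times, PHR1, the photolyase gene, by 2.93 ± 0.08 and 2.59 ± 0.10, and GRE1, a stress gene, by 1.08 ± 0.13 and 3.86 ± 0.16. DPP1, a lipid phosphatase gene, changed by 0.15 and 0.02, which were not called. At 3 min of 37 °C, the first time at which GIS1 was called, SSA3 and PHR1 rose by 0.38 and 0.47. The list does not separate genes that Gis1 activates from genes that it represses, so these directions do not tell its activity.

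Related zinc finger genes and the kinases upstream were also read. Of 7 related zinc finger genes, MSN2, MSN4 and GIS1 included, 4 were higher and 3 lower at 10 min of 37 °C (median 0.36, all genes 0.02), and 5 were higher and 0 lower at 40 min of 42 °C (median 1.08, all genes 0.01). USV1, whose 25 °C level was near that of probe sets without a target, rose by 4.07 ± 0.14 at 10 min of 37 °C and by 4.67 ± 0.17 at 40 min of 42 °C. COM2 changed by -0.34 and by 2.29 ± 0.07 at these times, and both were called. RGM1 changed by -0.78 at 10 min of 37 °C, which was called, and by -0.28 at 40 min of 42 °C, which was not. RPH1, the paralogue of GIS1, fell by 0.25 at 10 min of 37 °C and its change of -0.08 at 40 min of 42 °C was not called. Of 13 measured regulators of Msn2, Msn4 and Gis1, 10 were higher and 3 lower at 10 min of 37 °C (median 0.36, all genes 0.02), and 10 were higher and 3 lower at 40 min of 42 °C (median 0.64, all genes 0.01). YAK1, a kinase that opposes growth, rose by 2.26 ± 0.08 and 3.30 ± 0.10, and TPK2, a catalytic subunit of protein kinase A, by 2.00 ± 0.06 and 2.14 ± 0.07, while TPK3, another such subunit, fell by 1.27 on the log2 scale at 10 min of 37 °C.

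YAP1 (YML007W), the main oxidative stress activator, dipped first and rose later. At 37 °C its level was 10.27, 10.27 and 10.22 in the controls, 10.04, 10.09 and 10.04 at 3 min, 9.61, 9.97 and 10.00 at 5 min, 9.97, 10.10 and 10.05 at 7 min, 10.29, 10.31 and 10.15 at 10 min, 10.35, 10.62 and 10.43 at 15 min, 10.43, 10.33 and 10.30 at 40 min and 9.93, 9.97 and 10.00 at 80 min. The arrays of 3 to 7 and of 80 min lay below all controls and those of 15 and 40 min above them. The change amounted to -0.39 ± 0.08 at 5 min (limma, adjusted p = 3.54e-05), 0.21 ± 0.08 at 15 min (0.0114; 0.125 without the second 15 min array), 0.10 ± 0.08 at 40 min (0.218) and -0.29 ± 0.08 at 80 min (0.00114). At 3 min it was -0.20 ± 0.08 (limma, adjusted p = 0.0324), and this call was lost without any of 4 of the 6 arrays concerned (0.0784 to 0.0844). At 7 min it was -0.22 ± 0.08 (limma, adjusted p = 0.0116; 0.0544 without the first 7 min array).

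At 42 °C YAP1 read 9.67 and 9.68 in the controls, 9.57 and 9.35 at 3 min, 9.25 and 9.24 at 5 min, 9.52 and 9.53 at 10 min and 10.43 and 10.48 at 40 min. It lay below the controls until 10 min and above them at 40 min. Relative to 25 °C it changed by -0.22 ± 0.09 at 3 min (limma, adjusted p = 0.0488), which was lost without any of 3 of the 4 arrays concerned (0.122 to 0.476). It was -0.44 ± 0.09 at 5 min (limma, adjusted p = 0.000122) and 0.78 ± 0.09 at 40 min (3.79e-09). Its 25 °C levels differed between batches by -0.58 (A927 minus A863), and against the A927 control the 37 °C changes at 3, 5, 7 and 80 min were 0.38, 0.18, 0.36 and 0.29.

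Yap1 targets, mostly genes of glutathione, thioredoxin and drug export, were more often lower than higher at most times of 37 °C. Of 15, 1 was higher and 9 lower at 5 min, 3 and 9 at 7 min, 7 and 6 at 15 min (median 0.07, all genes 0.06), 4 and 10 at 40 min and 2 and 10 at 80 min (median -0.30, all genes -0.03). At 42 °C 3 were higher and 6 lower at 3 min (median -0.04, all genes -0.04), and 8 were higher and 6 lower at 40 min of 42 °C (median 0.48, all genes 0.01). SRX1, the sulfiredoxin gene, rose by 1.07 ± 0.11 at 15 min of 37 °C and by 3.34 ± 0.13 at 40 min of 42 °C, and ATR1, an exporter gene, changed by -1.33 ± 0.07 at 10 min of 37 °C. YCF1, a vacuolar glutathione conjugate pump, fell by 1.49 on the log2 scale at 40 min of 42 °C.

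CIN5 (YOR028C) had the widest course of the 8. At 37 °C its level was 9.10, 9.16 and 9.49 in the controls, 9.86, 9.68 and 9.60 at 1 min, 12.03, 12.06 and 11.95 at 3 min, 12.71, 12.81 and 12.83 at 5 min and 12.87, 12.88 and 12.78 at 7 min. It then read 12.36, 12.30 and 12.26 at 10 min, 10.90, 10.86 and 11.07 at 15 min, 7.94, 7.89 and 7.95 at 40 min and 7.19, 7.21 and 7.42 at 80 min. The arrays from 1 to 15 min were all above the controls and those of 40 and 80 min all below them.

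The log2 change of CIN5 was 0.46 ± 0.09 after 1 min (limma, adjusted p = 0.000747), and CIN5 was the only 1 of the 8 called at that time. It was 2.76 ± 0.09 at 3 min (1.96e-21), where it ranked 14 of 5449 genes by size of change, and 3.59 ± 0.09 at 7 min (3.42e-25). Within its arrays CIN5 stood at percentile 90.8 to 91.5 at 7 min, against 24.1 to 31.3 in the controls. At 40 min the change was -1.32 ± 0.09 (4.53e-14) and at 80 min -1.98 ± 0.09 (3.27e-18). From 10 to 40 min the level fell by 4.38 on the log2 scale (limma, adjusted p = 3.95e-27), which ranked 9 of 5449 genes.

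At 42 °C CIN5 read 9.20 and 9.17 in the controls, 12.18 and 12.25 at 3 min, 12.37 and 12.41 at 5 min, 12.05 ± 0.08 at 10 min (SD, n = 2) and 10.03 and 10.16 at 40 min. It was still above the controls at the last time. Its change from 25 °C was 3.03 ± 0.11 at 3 min (limma, adjusted p = 1.46e-20), 3.20 ± 0.11 at 5 min (2.25e-21) and 0.91 ± 0.11 at 40 min (8.42e-09).

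Counts in the Yap family differed between times. Of its 8 genes, YAP1 and CIN5 included, 7 were higher and 1 lower at 15 min of 37 °C (median 0.59, all genes 0.06), while 2 were higher and 4 lower at 40 min (median -0.10, all genes -0.02) and at 80 min (median -0.21, all genes -0.03). At 40 min of 42 °C 6 were higher and 2 lower (median 0.84, all genes 0.01). YAP6, the closest relative of CIN5, rose by 0.55 at 3 min of 37 °C and by 2.49 ± 0.12 at 40 min of 42 °C, and CAD1, the closest relative of YAP1, by 1.24 ± 0.07 at 15 min of 37 °C and 1.54 ± 0.08 at 40 min of 42 °C. YAP5, an iron-responsive member, rose by 1.24 ± 0.08 at 40 min of 42 °C, and ARR1, which acts in arsenic resistance, by 0.64. YAP7 fell by 1.10 on the log2 scale at 15 min of 37 °C, and YAP3 fell by 0.29 on the log2 scale at 40 min of 42 °C.

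HOT1 (YMR172W) fell slightly and for a while at 37 °C and further at 42 °C. At 37 °C its level was 8.72, 8.74 and 8.67 in the controls, 8.54, 8.48 and 8.41 at 3 min, 8.22, 8.30 and 8.16 at 7 min, 8.19, 8.32 and 8.29 at 15 min, 8.62, 8.57 and 8.58 at 40 min and 8.67, 8.63 and 8.73 at 80 min. From 3 to 40 min every array lay below the controls, and at 80 min they overlapped. In log2 units it changed by -0.48 ± 0.09 at 7 min (limma, adjusted p = 1.18e-05), -0.44 ± 0.09 at 15 min (2.93e-05) and -0.12 ± 0.09 at 40 min (0.207). At 3 min it was -0.23 ± 0.09 (limma, adjusted p = 0.0304), and this call was lost without any of 4 of the 6 arrays concerned (0.0643 to 0.108).

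At 42 °C HOT1 read 8.78 and 8.70 in the controls, 8.25 and 8.33 at 3 min, 8.17 and 8.17 at 5 min, 7.79 and 7.79 at 10 min and 7.55 and 7.51 at 40 min, and no neighbouring groups overlapped. The change amounted to -0.46 ± 0.11 at 3 min (limma, adjusted p = 0.000557), -0.95 ± 0.11 at 10 min (2.1e-09) and -1.21 ± 0.11 at 40 min (5.46e-12). MSN1, a related activator, rose by 0.91 ± 0.05 at 10 min of 37 °C and by 2.13 ± 0.06 at 40 min of 42 °C, and GCR1, an activator of glycolytic genes with a related domain, by 0.35 ± 0.09 and 0.55 ± 0.11.

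Most genes listed as Hot1 targets rose at times when HOT1 fell. Of 5, 4 were higher and 0 lower at 10 min of 37 °C (median 2.69, all genes 0.02), and 5 were higher at 40 min of 42 °C (median 2.96, all genes 0.01). GPD1 and GPP2, the glycerol synthesis genes, rose by 2.32 and 2.69 at 10 min of 37 °C and by 2.96 and 4.05 at 40 min of 42 °C. RTC3 rose by 6.05 ± 0.12 and 7.29 ± 0.15 at these times, and FMP48, a gene of a putative mitochondrial protein, by 3.60 ± 0.11 and 2.19. STL1, the glycerol symporter gene, changed by 0.07 at 10 min of 37 °C, which was not called, and rose by 0.37 at 40 min of 42 °C. Of 11 regulators of Yap1, Skn7, Hot1 and Cin5, 8 were higher and 2 lower at 40 min of 42 °C (median 0.33, all genes 0.01): SSK1, a relay of the osmotic pathway, rose by 2.16 ± 0.10, HOG1 by 1.39 ± 0.06 and its activating kinase PBS2 by 1.03 ± 0.07. Of 9 cofactors that stress activators recruit, 5 were higher (44.1% of all genes were) and 4 lower (42.9%) there. Their median change was 0.18 (all genes 0.01), and SSN8, a Mediator cyclin, rose by 1.86 ± 0.10.

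**Figure D3:**
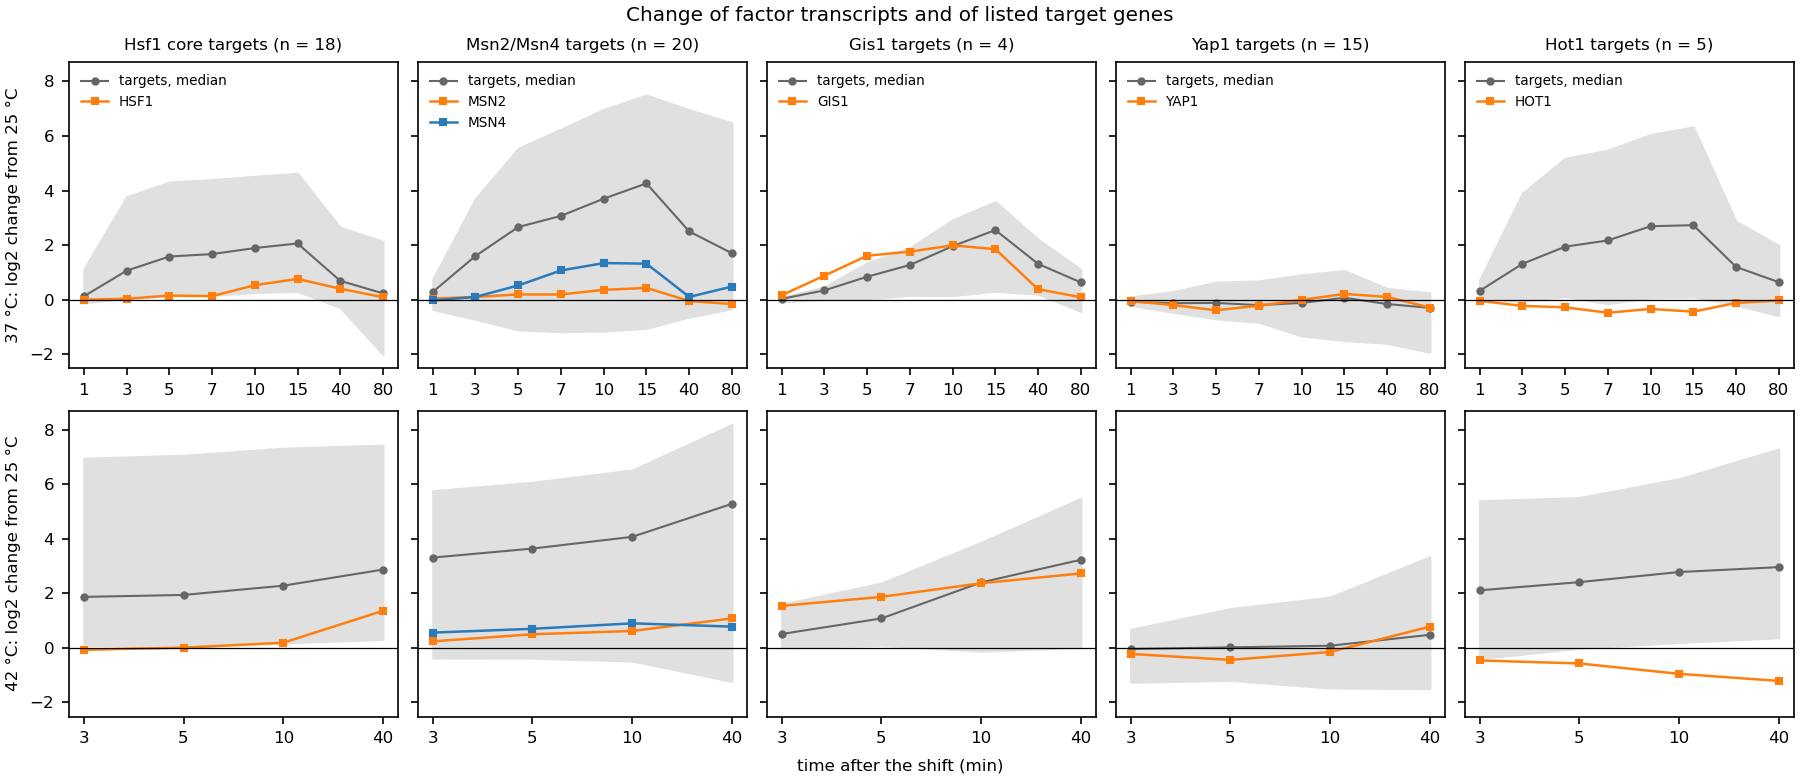
Log2 change of factor transcripts (squares) and median log2 change of their listed targets (grey circles, with the range over the targets shaded) at 37 °C (top) and 42 °C (bottom) against time in min. Targets of Hsf1 have a median of 1.06 at 3 min of 37 °C, when HSF1 changed by 0.03, and the Hot1 panel has its target median above 0 and HOT1 below 0.

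The responses at the 2 temperatures were set against each other at shared times as the 42 °C change less the 37 °C one. At 3 min 3 of the 8 differed (27.4% of genes did), at 5 min 1 (31.3%), at 10 min 4 (61.5%) and at 40 min 7 (82.0%). At 40 min the difference was 2.35 ± 0.12 for GIS1 (limma, adjusted p = 1.53e-17), 2.23 ± 0.15 for CIN5 (4.9e-15), 1.13 ± 0.11 for MSN2 (3.81e-11) and 0.96 ± 0.16 for HSF1 (2.17e-06). It was 0.68 ± 0.11 for MSN4 (limma, adjusted p = 1.44e-06), 0.68 ± 0.12 for YAP1 (6.2e-06) and -1.09 ± 0.14 for HOT1 (1.99e-08). SKN7 had -0.22 ± 0.11 (limma, adjusted p = 0.0613, 95% interval -0.44 to 0.00).

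The differences called at 3, 5 and 10 min were at most 0.65 in size. GIS1 rose more at 42 °C by 0.65 ± 0.12 at 3 min (limma, adjusted p = 0.000107), and SKN7 fell more, with -0.38 ± 0.11 (0.00735). MSN4 differed by 0.46 ± 0.11 at 3 min (limma, adjusted p = 0.00169; 0.051 after quantile normalisation of all arrays together) and by -0.44 ± 0.11 at 10 min (0.000754). HOT1 differed by -0.61 ± 0.14 at 10 min (limma, adjusted p = 0.000314). MSN2 differed by 0.31 ± 0.11 at 5 min (limma, adjusted p = 0.0275) and by 0.25 ± 0.11 at 10 min (0.0397), and the 5 min call was lost without any of 3 single arrays (0.0865 to 0.104) and the 10 min call without any of 9 (0.0509 to 0.12). GIS1 differed by 0.37 ± 0.12 at 10 min (limma, adjusted p = 0.00851; 0.0523 without the first A927 control array, and 0.103 after quantile normalisation of all arrays together). CIN5 was not called at 3, 5 or 10 min, with 95% intervals of -0.02 to 0.57, -0.63 to -0.03 and -0.48 to 0.11. Where the levels at 42 and 37 °C were set against each other with no control subtracted, MSN4 had -0.27 at 3 min, -0.55 at 5 min and -0.05 at 40 min, SKN7 had 0.23 at 5 min and 0.23 at 10 min, and the YAP1 difference at 40 min was 0.10.

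**Figure D4:**
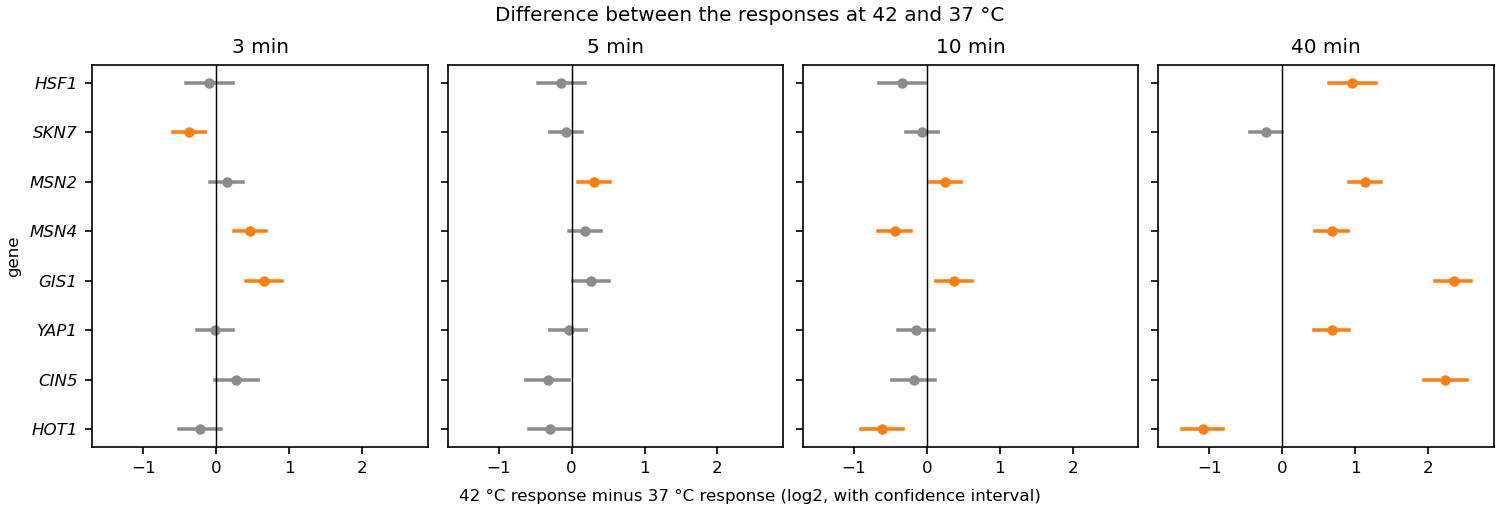
Log2 change at 42 °C minus log2 change at 37 °C for each transcript at 4 shared times, with 95% intervals; orange marks an adjusted p under 0.05 and grey the rest. At 40 min 6 of the 8 transcripts lie right of 0, HOT1 lies left of it, and the SKN7 interval ends at 0.

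Steps within a temperature show how the courses turned. Between 5 and 15 min of 37 °C 6 of the 8 changed (80.4% of genes did), between 10 and 40 min 6 (73.9%) and between 15 and 40 min 6 (76.5%). From 10 to 40 min of 37 °C GIS1 changed by -1.61 ± 0.08 (limma, adjusted p = 3.61e-18), MSN4 by -1.24 ± 0.07 (1.62e-16) and MSN2 by -0.42 ± 0.07 (2.28e-06). Over the same step at 42 °C 6 changed (79.3% of genes did): GIS1 by 0.36 ± 0.09 (limma, adjusted p = 0.000867), MSN2 by 0.46 ± 0.08 (9.41e-06), YAP1 by 0.93 ± 0.09 (1.33e-10) and CIN5 by -1.96 ± 0.11 (2.69e-16). HOT1 changed by 0.22 ± 0.09 from 10 to 40 min of 37 °C (limma, adjusted p = 0.028), and the call was lost without any of 3 single arrays (0.0757 to 0.105); the value was -0.01 after quantile normalisation of all arrays together.

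At 46 °C there was no control in the batch and its arrays had a lower median, so batch and temperature cannot be told apart and the levels are given without a test. CIN5 read 12.12 and 12.02 at 10 min and 12.28 and 11.81 at 30 min, which is percentile 84.0 to 88.5 within these arrays, against 24.1 to 31.3 over the 25 °C arrays. GIS1 read 11.69 and 11.36 at 10 min and 11.67 and 11.20 at 30 min (percentile 75.9 to 82.8, against 41.1 to 43.6 over the 25 °C arrays). Both stood higher in the ranking within their own arrays at 46 °C than on any 25 °C array.

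MSN4 read 8.85 and 8.83 at 10 min of 46 °C and 9.05 and 8.79 at 30 min, and MSN2 read 10.75 and 10.56 and then 10.66 and 10.31. HOT1 read 7.83 and 7.19 and then 7.47 and 7.25, and SKN7 read 9.43 and 9.18 and then 9.13 and 8.84. SKN7 was at percentile 27.7 to 39.1 at 46 °C, against 51.5 to 59.6 over the 25 °C arrays. HSF1 read 9.85 and 9.01 at 10 min and 9.29 and 9.33 at 30 min, so its 10 min arrays lay farther apart than the means of the times. YAP1 read 9.37 and 9.59 at 10 min and 9.85 and 9.83 at 30 min. Less the mean of both controls, the log2 differences at 10 and 30 min were 2.85 and 2.83 for CIN5, 1.57 and 1.48 for GIS1, 0.96 and 1.05 for MSN4, 0.33 and 0.16 for MSN2, -0.47 and -0.59 for HSF1, -0.49 and -0.13 for YAP1, -1.21 and -1.53 for SKN7 and -1.21 and -1.37 for HOT1. The YAP1 difference at 30 min was 0.22 after quantile normalisation of all arrays together, 0.16 against the A927 control and -0.41 against the A863 control, so its direction depends on both choices. After quantile normalisation the differences at 10 and 30 min were 0.65 and 0.49 for MSN2 and -0.07 and -0.19 for HSF1, and that of YAP1 at 10 min was -0.12 and that of SKN7 at 10 min -0.80.

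Between 10 and 30 min of 46 °C 2 of the 8 changed (46.3% of genes did): YAP1 by 0.36 ± 0.09 (limma, adjusted p = 0.00206) and SKN7 by -0.32 ± 0.08 (0.00226). This fit shares the spread of all batches, and batch P230 was the most spread. With the arrays of that batch alone, the adjusted p was 0.272 for YAP1 and 0.361 for SKN7.

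Likeness of course was measured as Pearson's r over the 12 groups at 37 and 42 °C, which share 2 sets of control arrays, and is given as a description. Among 4950 named genes, the course most like that of HSF1 was that of NPL4, a cofactor of the Cdc48 segregase (r = 0.982), followed by UBX4, another Cdc48 cofactor (0.979), and BET4 (0.976). CIN5 ran most like FMP48 (0.966), which is also on the Hot1 target list, then HXT2, a hexose transporter gene (0.934), and GUT1, the glycerol kinase gene (0.933). GIS1 ran most like LST8, a subunit of the TOR complexes (0.993), LEU5 (0.992) and SDS24 (0.991), and MSN2 most like SRX1 (0.990), GRX6, a glutaredoxin gene (0.980), and MET13 (0.974). MSN4 ran most like PET494 (0.952), UBA3 (0.940) and COS111 (0.929), and YAP1 most like JEM1, a chaperone cofactor of the endoplasmic reticulum (0.966), OCA4 (0.961) and RSC3 (0.956). SKN7 ran most like PUF4, an RNA-binding protein gene (0.941), DIS3, an exosome nuclease gene (0.936), and DIE2 (0.929), and HOT1 most like BUL2, a ubiquitin ligase adaptor gene (0.981), DAD3 (0.979) and SME1 (0.976). The genes most like HSF1, MSN2, GIS1 and YAP1 had their highest change at 40 min of 42 °C, and those most like HOT1 their lowest. How far r rests on that group was not tested.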

How the data were processed

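The deposited series table holds log2 intensities, 1 per probe set and array (5900 probe sets, 45 arrays), which the authors made with RMA (per the submitters' processing notes, which also name affy). The version of each tool and the build were not given in the sources used here. Per the labels' protocols, 150 ng of total RNA was labelled for 3′ expression arrays. RMA scales arrays to each other, which removes any overall change in messenger RNA per cell and compresses changes near background. Array medians differed between 3 sets of batches; which arrays were normalised together is not stated, so levels were tested only within a set, or as differences of changes.

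Groups and replicate numbers come from the titles. Of the probe sets 5498 carry 1 gene symbol, all matched to the R64 annotation (12 symbols updated), and the brightest of several stood for a gene (47 genes), which gave 5449 genes. Dim probe sets were kept, and sequences and coordinates were not used here. Group means were fitted to 41 arrays with limma 3.58.1 in R 4.3.3 (25 residual degrees of freedom), with two-sided moderated tests and Benjamini-Hochberg adjustment over all genes of a comparison. Arrays at 37 °C 80 min (batch A705) were compared with the A863 control, so batch and time are confounded there. The number of arrays, 2 or 3 per group, limits the precision. In simulated data with 100 genes changed by 0.5 and 100 by 1.5 (log2), the fit recovered 97 and 100 at 37 °C 10 min, 96 and 100 at 42 °C 10 min, and 75 and 100 in the difference between temperatures at 10 min. False calls numbered 5, 6 and 12. The simulated noise was independent and normal, with no batch differences. Far more genes were called in the data (4436, 4255 and 3350), so these rates need not hold there.

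The 8 members and the gene lists were chosen with earlier results of these data known. Named genes are the members, up to 3 called genes of each list with the largest change at 37 °C 10 or 15 min and 42 °C 10 or 40 min, all genes of lists of 8 or fewer, and the 3 genes most correlated with each member. Alternatives covered the arrays in the fit, prior variance, array weights, normalisation, probe sets per gene, low-level filters, a replicate block, the control and each array left out. Arrays sharing a replicate number did not deviate together: correlations of their deviations from group means ranged from -0.365 to 0.484.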

Additional observations from a re-analysis of the deposited data

Results flagged for a closer look

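The test of the difference between the 42 and 37 °C responses passed the threshold (limma, adjusted p under 0.05) in 15 cases. At 40 min these were HSF1 (0.96), MSN2 (1.13), MSN4 (0.68), YAP1 (0.68), GIS1 (2.35), CIN5 (2.23) and HOT1 (-1.09). At 10 min they were MSN2 (0.25), MSN4 (-0.44), GIS1 (0.37) and HOT1 (-0.61), at 5 min MSN2 (0.31), and at 3 min MSN4 (0.46), SKN7 (-0.38) and GIS1 (0.65). All values are log2 changes at 42 °C minus log2 changes at 37 °C. With all 45 arrays in the fit, the difference was called for 0 of the 8 at 3, 5 and 10 min, with 1, 0 and 2 at an unadjusted p under 0.05.

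The 4 arrays labelled 42 °C 1 and 80 min entered no comparison and stood out in the 8 transcripts. Above every 25 °C array lay 3 of the 8 on the first 1 min array, 6 on the second, 6 on the first 80 min array and 4 on the second. CIN5 read 11.49 on the first 1 min array and 12.02 on the second 80 min array, and 9.59 on the second 1 min array and 9.77 on the first 80 min array. HSF1 read 9.86 and 9.84 on the first of these pairs, and 11.82 and 11.66 on the second. In both genes the arrays paired across the labels and not within them, as they did over all probe sets (r = 0.998 and 0.9984 across, 0.612 and 0.6195 within a label).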

How the results depend on the processing

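Of the 1040 values with single arrays left out, 980 stayed on their side of the threshold with no called change turning sign, 48 lost the call and 11 gained it. HSF1 between 10 and 30 min of 46 °C (-0.12) turned to 0.30 without the first 10 min array and was -0.54 without the second, and both were called (limma). The number of factors called then ranged from 3 to 5 at 3 min of 37 °C (2070 to 2160 of 5449 genes). For the difference between temperatures it ranged from 0 to 2 at 5 min (1286 to 1769 genes) and from 2 to 4 at 10 min (3076 to 3316 genes). Between 10 and 30 min of 46 °C it ranged from 1 to 6 (1448 to 3068 genes). That last range rested on the P230 arrays (6 called without the second 10 min array, 4 without the first 30 min array and 1 without either of the others).

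With all 45 arrays in the fit, 23 of the 72 calls against 25 °C were lost. The 4 added arrays left every change as it was, since each rests on the means of other groups. Their unlike arrays within a label only widen the spread that all groups share, so lost calls here were to be foreseen. The factors called were then 0 at 1 min, 1 at 3 min, 4 at 5 min, 4 at 10 min, 2 at 40 min and 3 at 80 min of 37 °C, 4 at 3 min of 42 °C, 0 in the differences at 3, 5 and 10 min, 3 in the steps 15 against 5 min and 40 against 10 min of 37 °C and 40 against 10 min of 42 °C, and 0 at 46 °C (unadjusted p under 0.05: 0 at 1 min of 37 °C and 0 at 46 °C). Of all 5449 genes, 42 were then called against 770 at 1 min of 37 °C, 512 at 3 min, 1620 at 5 min, 2214 at 40 min and 1802 at 80 min. At 3 min of 42 °C 981 were called. In the differences 142 were called against 1493 at 3 min, 300 at 5 min and 1253 at 10 min. The 3 steps held 2646, 2206 and 2762, and 46 °C held 539. No count of factors in these settings is read as a result about the factors. With only a comparison's own batches 3 factors were called at 1 min of 37 °C, where 1196 genes were called. At 46 °C 0 factors were called, and 0 genes against 2525 (957 at an unadjusted p under 0.05, 1 of the 8 among them). Array weights gave 3 at 1 min of 37 °C, with 2673 genes against 770. They gave 5 and 4 in the differences at 3 and 5 min, with 2668 and 2896 genes, and 0 at 46 °C (0 unadjusted), with 298 genes. Quantile normalisation gave 2 in the difference at 5 min, and turned HOT1 between 10 and 40 min of 37 °C to -0.01. With the dimmest genes left out (4087 genes and 6 of the 8 kept), the difference at 10 min held 2. The lower count came from called factors that were dropped: all 126 values of the factors kept stayed on their side of the threshold. The replicate block, with replicate numbers that did not pair the arrays, gave 3 at 1 min of 37 °C and 3 in the difference at 5 min.

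The control of the other batch gave 6 at 1 min and 7 at 40 min of 37 °C. It turned YAP1 at 3, 5, 7 and 80 min of 37 °C to 0.38, 0.18, 0.36 and 0.29, MSN2 at 5 and 7 min to -0.09 and -0.10, and MSN4 at 3 and 5 min of 42 °C to -0.17 and -0.03. Changes not called against their own control also turned and were then called at 37 °C: MSN2 at 1 and 3 min (-0.24 and -0.18), MSN4 at 1 min (0.70) and YAP1 at 1 and 10 min (0.53 and 0.57). MSN2 at 10 and 15 min of 37 °C lost its call (0.08 and 0.15). Whether both controls were normalised together is not stated. Direct differences of 42 and 37 °C levels, also across batches, gave 6 at 5 min (3438 genes were called) and 7 at 10 min. They turned MSN4 at 3, 5 and 40 min to -0.27, -0.55 and -0.05 and SKN7 at 5 and 10 min to 0.23 and 0.23. With a change of at least 2-fold also required, the counts were 0, 1, 2, 4, 4, 4, 2 and 1 at the 8 times of 37 °C, 2, 3, 3 and 5 at 42 °C, 0, 0, 0 and 4 in the differences, 1, 3, 3 and 2 in the steps, and 0 at 46 °C. Genes called numbered 13, 177, 629, 873, 1303, 1615, 779 and 434 at the same times of 37 °C and 492, 834, 1397 and 2487 at 42 °C. They numbered 145, 183, 759 and 2142 in the differences, 868, 710, 876 and 1285 in the steps, and 13 at 46 °C. The intensity trend, median centring, the mean of probe sets and the floor filter moved no count of factors by over 1.5 times. At 46 °C quantile normalisation and median centring moved HSF1 at 30 min to -0.19 and -0.24, YAP1 at 10 min to -0.12 and -0.14, and MSN2 at 30 min to 0.49 and 0.51.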
